A study of Drosophila melanogaster with 2 samples.

Results

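The peaks described here are sites of chromatin enrichment that lay in introns a short way from a transcript start. They were taken from the deposited optimal peak set by position alone: the summit of the peak was over 500 and at most 2000 bp from the nearest annotated transcript start of any gene, inside the span of a gene and in no annotated exon. Of the 3533 optimal peaks, 460 met this rule (13.02%, exact 95% binomial interval 11.9 to 14.2%), and they are called near-start intron peaks. The peaks came from chromatin immunoprecipitation and sequencing (ChIP-seq) of whole wandering L3 larvae, the last larval stage, of Drosophila melanogaster, males and females pooled and of unknown age, from 1 transgenic line that stably expresses CG9705 with green fluorescent protein (GFP) at its C terminus. There was 1 group of 2 biological replicates, both of this CG9705-GFP strain, and an untagged group was not analysed here. The labels do not say what drives the transgene or in which tissues the fusion is made, and a whole larva mixes all of its cell types. The free-text description of both libraries calls them an input control, while their antibody field, their assay title and the separate control listed for them describe a ChIP. They are treated here as the ChIP samples, and if the description were right the peaks would be enrichment in sheared chromatin.

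In Drosophila, as in other animals, the first introns of genes often hold enhancers and other regulatory DNA, and an intron can also hold an alternative promoter of the same gene. CG9705 encodes a protein with a cold-shock domain, a fold that binds single-stranded RNA or DNA. Intron peaks near a start lie between peaks at promoters and peaks deep in introns, and they were compared with both.

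Per replicate, the deposited relaxed lists held 30000 peaks each, and no file gives read counts, which leaves library depth unknown. The optimal set equals the 3533 highest-scoring peaks of the list called on both replicates together. The score is the authors' own value for each peak, with a scale that is not stated, and it is used only to rank peaks within a list. The 3533 highest-scoring peaks of each replicate serve as the measure of error, and every interval covers counting error alone. By the same rule 474 of the best peaks of replicate 1 and 431 of replicate 2 were near-start intron peaks, or 13.4% and 12.2%. The rest of the optimal set was 2053 peaks within 500 bp of a start (promoter peaks), 549 in introns over 2000 bp from any start (distal intron peaks), 165 and 240 in intergenic sequence nearer and further than 2000 bp, and 66 in exons.

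The sequences at the summits of the strongest near-start intron peaks were rich in A and T. They are shown because the low content of G and C at the summit was the plainest sequence feature of these peaks. The lines below give the 101 bp centred on the summit of 10 of the highest-scoring peaks, on the + strand of the Release 6 genome (dm6), from 5′ to 3′, named by the gene whose intron holds them; capitals mark unbroken runs of at least 6 bases that are A or T.
CG11050, chr2L:6612666-6612766: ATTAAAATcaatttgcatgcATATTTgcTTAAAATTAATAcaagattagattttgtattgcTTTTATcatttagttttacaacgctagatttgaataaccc
CG9663, chr2L:3302141-3302241: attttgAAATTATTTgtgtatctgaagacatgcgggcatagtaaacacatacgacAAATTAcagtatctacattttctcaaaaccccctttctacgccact
Lk6, chr3R:11761004-11761104: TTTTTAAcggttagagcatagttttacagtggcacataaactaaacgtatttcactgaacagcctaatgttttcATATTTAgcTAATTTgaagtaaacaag
CG32772, chrX:4910341-4910441: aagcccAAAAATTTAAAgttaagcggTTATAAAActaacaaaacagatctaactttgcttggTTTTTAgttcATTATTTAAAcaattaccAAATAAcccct
norpA, chrX:4324931-4325031: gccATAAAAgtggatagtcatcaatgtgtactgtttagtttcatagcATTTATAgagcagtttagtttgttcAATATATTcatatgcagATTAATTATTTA
CG4496, chr2L:7188592-7188692: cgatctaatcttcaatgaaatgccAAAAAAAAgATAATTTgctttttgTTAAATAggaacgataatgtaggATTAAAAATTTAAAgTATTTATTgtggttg
Trl, chr3L:14759460-14759560: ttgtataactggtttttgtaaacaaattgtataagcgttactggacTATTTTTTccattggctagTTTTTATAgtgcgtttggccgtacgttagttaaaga
CG3726, chrX:5918870-5918970: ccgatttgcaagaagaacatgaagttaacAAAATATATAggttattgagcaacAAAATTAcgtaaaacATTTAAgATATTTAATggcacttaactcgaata
Zw, chrX:19668556-19668656: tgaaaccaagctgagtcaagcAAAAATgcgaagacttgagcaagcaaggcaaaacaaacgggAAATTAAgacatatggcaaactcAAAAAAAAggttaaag
CHES-1-like, chrX:7706926-7707026: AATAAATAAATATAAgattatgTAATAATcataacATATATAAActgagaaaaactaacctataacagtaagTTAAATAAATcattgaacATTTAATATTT

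The G and C content of these 10 stretches ran from 15.8% at CHES-1-like to 37.6% at Zw, against a median of 39.6% over all 101-bp stretches of intron sequence that meet the same distance rule. Runs of A and T covered a median of 24.8% of the bases in the 101 bp around all 460 summits (quartiles 13.9 to 35.6%), and 26.7% and 23.8% in the near-start intron peaks of replicate 1 and replicate 2. Over all such intron stretches the median was 15.8% (quartiles 6.93 to 26.7%). Distal intron peaks had a median of 26.7% and promoter peaks of 24.8%, and these medians lay above that of the eligible intron stretches. No test was made of the peaks against the intron sequence.

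The dip in G and C was narrow. Within 50 bp of the summit, the near-start intron peaks averaged 33.7% G and C, and at 200 to 300 bp on either side 44.1%. In replicate 1 the values were 32.9% and 44.2%, and in replicate 2 they were 35.1% and 44.4%. Distal intron peaks had a dip of the same kind, from 45.2% at 200 to 300 bp to 32.8% at the centre, and promoter peaks a broader one, from 43.2% to 34.7%. In windows of 201 bp the median was 34.3% for the near-start intron peaks (quartiles 30.8 to 39.8%), 34.8% for distal intron peaks, 34.8% for promoter peaks (33.8% in replicate 1, below the 34.1% of near-start intron peaks there) and 39.8% over 56745 windows tiled across the eligible intron sequence. The content did not follow the score closely: the median was 34.3% in the 230 higher-scoring near-start intron peaks and 34.6% in the other 230. Of the 25 strongest, 19 lay below the median of the eligible windows, and their values ran from 25.9% to 45.8%.

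A 7-letter word, CACTGTA or its reverse complement TACAGTG, occurred near a minority of these summits. It was present within 100 bp of the summit in 49 of 460 near-start intron peaks (10.7%), in 8.65% of those of replicate 1 and in 8.58% of those of replicate 2. The same word was in 2.13% of all windows of the same length in eligible intron sequence. In distal intron peaks the share was 8.38%, against 1.70% of the windows of distal intron sequence, and in promoter peaks 4.77%, against 1.85% of the windows within 500 bp of a start. It was taken as the 7-letter word with the highest ratio of peak windows to all windows in the distal intron peaks, among words in at least 3% of them, but words had been looked at in every class of peak first. The choice was therefore made after its values were seen, and the shares are given with no test. Other words that share letters with it were also common. ACAGTGG was in 49 of 460 near-start intron peaks (10.7%, with 11.4% and 11.8% in the replicates), against 2.61% of eligible intron windows. CAGTGCA was in 7.39% of near-start and 13.8% of distal intron peaks, against 3.21% and 3.10% of their windows. How often these words fall in the same peaks was not counted. The lines below give 201 bp around the summit of the 5 highest-scoring near-start intron peaks that hold the word and are not on a chromosome arm left out here, on the + strand of Release 6; capitals mark the word.
Lk6, chr3R:11760954-11761154: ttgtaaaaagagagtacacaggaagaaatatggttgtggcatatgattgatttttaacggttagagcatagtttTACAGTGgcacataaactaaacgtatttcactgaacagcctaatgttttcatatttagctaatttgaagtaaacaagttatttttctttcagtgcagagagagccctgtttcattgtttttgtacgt
norpA, chrX:4324881-4325081: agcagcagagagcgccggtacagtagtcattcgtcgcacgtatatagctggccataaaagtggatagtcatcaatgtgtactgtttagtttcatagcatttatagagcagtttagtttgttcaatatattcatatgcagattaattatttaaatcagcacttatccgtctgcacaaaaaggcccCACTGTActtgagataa
CHES-1-like, chrX:7706876-7707076: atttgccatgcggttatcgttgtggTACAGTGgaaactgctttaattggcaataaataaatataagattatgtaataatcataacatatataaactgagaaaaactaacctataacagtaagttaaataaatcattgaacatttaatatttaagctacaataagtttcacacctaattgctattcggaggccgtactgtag
for, chr2L:3655728-3655928: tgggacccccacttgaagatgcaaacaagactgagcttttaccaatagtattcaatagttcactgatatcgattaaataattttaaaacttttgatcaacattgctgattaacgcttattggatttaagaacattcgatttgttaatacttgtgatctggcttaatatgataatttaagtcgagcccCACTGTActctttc
crb, chr3R:24295964-24296164: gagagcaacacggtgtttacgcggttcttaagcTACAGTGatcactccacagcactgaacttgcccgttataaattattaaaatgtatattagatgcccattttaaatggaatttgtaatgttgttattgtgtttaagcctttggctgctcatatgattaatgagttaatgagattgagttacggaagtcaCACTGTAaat

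In these 5 peaks the word lay to the side of the summit. At Lk6 its centre was 23 bp and at CHES-1-like 72 bp before the summit on the + strand, at norpA 87 bp and at the foraging gene (for) 90 bp after it, and crb held it on both sides, 64 bp before and 94 bp after the summit. Over all 460 peaks the word was found 69 times between 50 and 150 bp from the summit and 8 times within 50 bp of it. Replicate 1 gave 66 and 11 occurrences and replicate 2 gave 51 and 13. Per 50 bp, all eligible intron windows held 0.558 occurrences in 100 windows, and the near-start intron peaks held 4.78 per 100 peaks in the bin from 51 to 100 bp before the summit, 5.22 in the bin from 50 to 99 bp after it and 0.870 in each of the central bins. The distal intron peaks had 60 occurrences at 50 to 150 bp and 11 within 50 bp, and the promoter peaks had 121 and 39. In each of these counts the outer range covers more sequence than the central one. The word was present in 26 of the 230 higher-scoring near-start intron peaks and in 23 of the other 230.

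**Figure D1:**
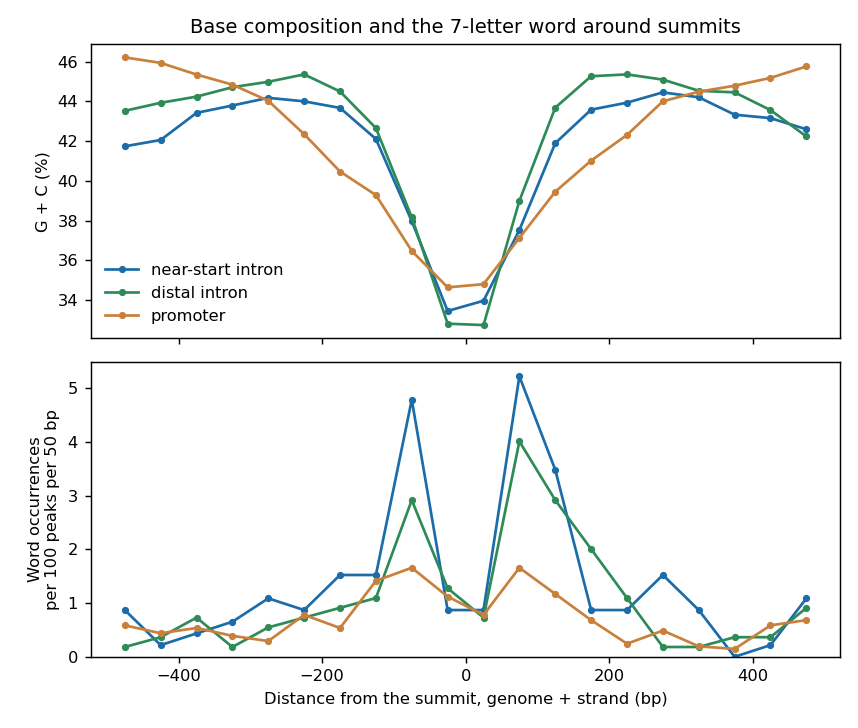
Mean G and C content (top, percent) and occurrences of the 7-letter word per 100 peaks in bins of 50 bp (bottom) against the distance from the summit in bp, for near-start intron, distal intron and promoter peaks of the optimal set. In the near-start intron peaks G and C falls to 33.7% within 50 bp of the summit, while the word occurs at 4.78 and 5.22 per 100 peaks in the bins just outside and at 0.870 in each of the central bins.

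Among 28 known motifs of transcription factors, core promoters and simple repeats, the near-start intron peaks differed from promoter peaks and not detectably from distal intron peaks. A motif was counted when its letters lay on either strand within 100 bp of the summit, and shares were compared by the two-sided Fisher's exact test with Benjamini-Hochberg adjustment over 56 comparisons. Against distal intron peaks 0 of 28 motifs passed an adjusted p of 0.05 (0%), and 0 had an unadjusted p under 0.05. This does not show that the classes are alike: the AP-1 motif TGANTCA, bound by the Jun and Fos factors, was in 7.61% of near-start and 4.74% of distal intron peaks (Fisher's exact test, unadjusted p = 0.0635, adjusted p = 0.274). Against promoter peaks 6 of 28 motifs passed (21.4%), of which 4 were rarer and 2 more common in the near-start intron peaks.

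The motifs that were rarer include the DRE and Motif 1, sites known from the core promoters of broadly expressed genes. The DRE, TATCGATA, the site of the replication-related factor Dref, was in 2 of 460 near-start intron peaks (0.435%) and in 170 of 2053 promoter peaks (8.28%), with a log2 odds ratio of -4.05 and an adjusted p of 1.18e-11 (Fisher's exact test). It was in 5.45% of windows at all 23581 transcript starts and 0.426% of eligible intron windows. The core site of the insulator protein BEAF-32, CGATA, which is also contained in the DRE, was in 21.5% of near-start intron peaks and 39.8% of promoter peaks (log2 odds ratio -1.27; adjusted p = 2.25e-12, Fisher's exact test). The eligible intron windows held it in 21.2% and windows at all starts in 34.7%. Motif 1, GGTCACACT, the site of the promoter factor M1BP, was in 0.435% against 3.36% (log2 odds ratio -2.68; adjusted p = 0.00239, Fisher's exact test). The E-box CAGCTG, a site of basic helix-loop-helix factors, was in 6.30% against 11.3% (log2 odds ratio -0.89; adjusted p = 0.0115, Fisher's exact test). Windows at all starts held Motif 1 in 3.71% and this E-box in 12.3%, and eligible intron windows in 0.0934% and 7.56%, so for all 4 motifs the differences between the peak classes run the same way as those between the sequences they lie in.

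The motifs that were more common were GAGAG and AP-1. GAGAG, the site of GAGA factor, the chromatin protein encoded by Trl, was in 26.1% of near-start intron peaks and 18.9% of promoter peaks (log2 odds ratio 0.61; adjusted p = 0.00903, Fisher's exact test). It was in 21.0% of eligible intron windows and in 24.3% of windows at all starts. The AP-1 motif was in 7.61% against 3.85% (log2 odds ratio 1.05; adjusted p = 0.0115, Fisher's exact test), with 5.48% of eligible intron windows and 3.91% of windows at all starts. The AP-1 difference had a log2 odds ratio of 0.96 with the best peaks of replicate 1 alone and of 0.72 with those of replicate 2 alone, where it no longer passed the test (Fisher's exact test, adjusted p = 0.197). The DRE and BEAF-32 calls held in windows of 50 bp to each side and among the 1766 highest-scoring peaks, and the other 4 calls did not, though each kept its direction. Their log2 odds ratios in the 50-bp windows and the higher-scoring peaks were 0.37 and 0.64 for GAGAG, -1.42 and -0.81 for Motif 1, -0.85 and -0.36 for CAGCTG, and 0.66 and 0.44 for AP-1.

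The other 22 motifs passed neither comparison in the optimal set with 100 bp to each side. They were the E-box CACGTG, Zelda CAGGTAG, the GATA-factor site AGATAAG, CRE TGACGTCA, ETS CCGGAAG, Pho GCCATNTT, the nuclear receptor site AGGTCA, homeodomain TAATTA, the CCAAT box, KLF GGGCGTG, forkhead TGTTTAC, Stat TTCNNNGAA, Grainyhead AACCGGTT, Scalloped GGAATG, E2F TTCCCGC, the CTCF core AGGTGGCG, the heat-shock element GAANNTTC, Hairy CACGCG, and the repeats CTCTCTCT, CACACACA, AAAAAAAA and TTTTCTTT. Among them CCAAT was the most common, in 32.4% of near-start intron peaks and 36.3% of eligible intron windows. The E-box CACGTG came nearest to a difference from promoter peaks, at 0.870% against 2.97% (Fisher's exact test, adjusted p = 0.0674). It was in 2.34% of eligible intron windows and 2.82% of windows at all starts. AAAAAAAA was in 15.7% of near-start intron peaks, 16.8% of distal intron peaks and 11.9% of promoter peaks, against 13.1% of eligible intron windows. Under other settings some of these 22 did pass against promoter peaks. With 150 bp to each side 7 motifs passed, including all 6 above. With replicate 2 alone 7 passed, though AP-1 did not, and with 50 bp to each side 3 passed. Which of the 22 these were is not given here.

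**Figure D2:**
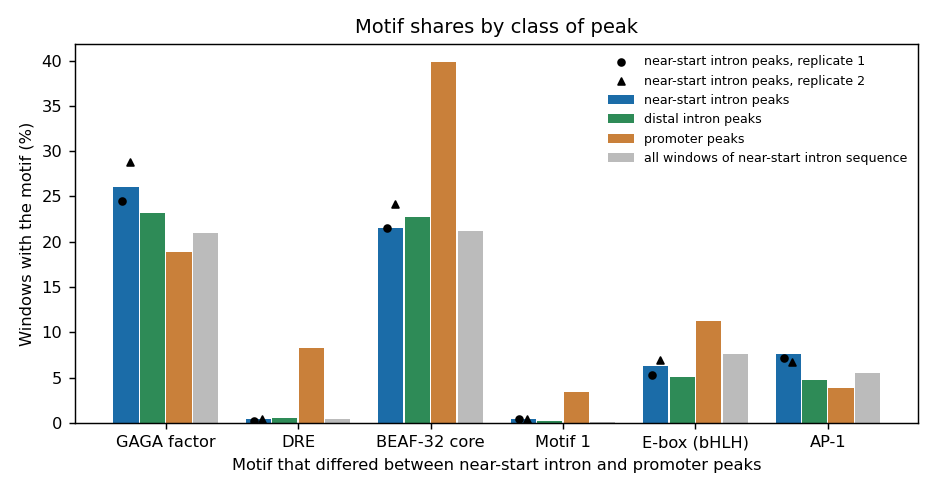
Percent of 201-bp windows around the summit that hold each of the 6 motifs that differed between near-start intron and promoter peaks, for the 3 classes of optimal peak and for all windows of eligible intron sequence; black symbols are the near-start intron peaks of each replicate. The DRE is in 0.435% of near-start intron and 8.28% of promoter peaks, and the bars of near-start and distal intron peaks stand close together.

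Peaks were more densely packed in the intron sequence near starts than further inside introns. The 11.4 Mb of intron sequence that meets the distance rule held 40.2 summits per Mb (41.5 in replicate 1 and 37.7 in replicate 2), against 13.3 per Mb in distal intron sequence (14.4 and 12.6), 22.3 per Mb in intergenic sequence at the same distance from a start (23.4 and 22.7) and 113 per Mb within 500 bp of a start. The density fell with distance without a step at 2000 bp: from 54.9 per Mb between 500 and 750 bp to 29.4 per Mb between 1750 and 2000 bp, and to 23.2, 18.8 and 14.5 per Mb in the ranges that end at 3000, 5000 and 10000 bp. Intergenic sequence fell from 28.0 to 20.1 per Mb between 500 and 2000 bp and was at 10.7, 13.3 and 13.1 per Mb further out. In both replicates each of the 6 bins up to 2000 bp held more summits per Mb in introns than in intergenic sequence. The rates are descriptions, with no test.

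**Figure D3:**
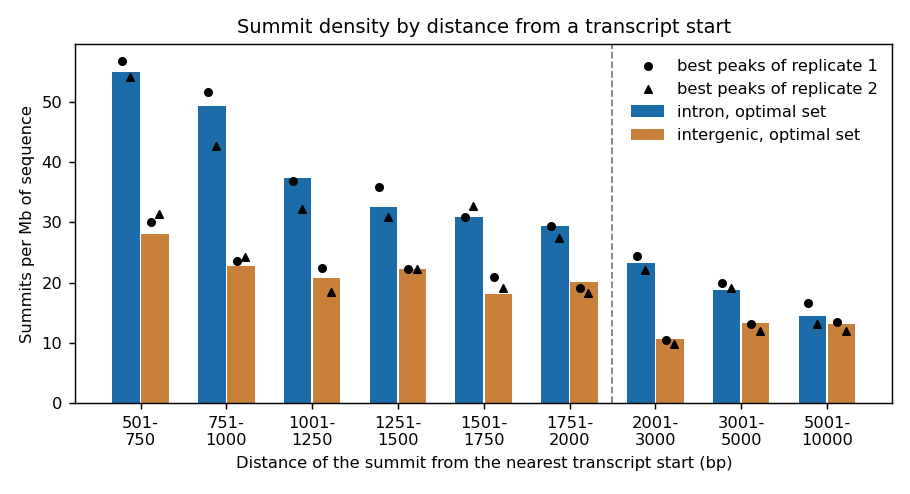
Summits per Mb of eligible sequence against the distance from the nearest transcript start in bp, for intron and intergenic sequence; bars are the optimal set, points the 3533 best peaks of each replicate, and the dashed line marks 2000 bp, the outer limit of the near-start intron peaks. Intron bars fall from 54.9 to 29.4 per Mb up to that line and to 14.5 per Mb in the last bin, and the replicate points follow them.

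The limits of the rule cut through a continuous range of distances. Just inside the inner limit lay peaks of CG42671 (502 bp, score 175) and MESR3 (503 bp, score 114), and just outside it peaks of lncRNA:let7C (499 bp, score 119) and wech (496 bp, score 104). Just inside the outer limit lay peaks of CHES-1-like and Ubx (1998 bp each, scores 130 and 122), and just outside it peaks of CG42709 (2002 bp, score 269) and plum (2011 bp, score 109). The median distance was 1002 bp (quartiles 730 and 1399 bp).

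Most near-start intron peaks lay in a first intron and nearest to a start of their own host gene. A first intron of a transcript of the host held 378 of them (82.2%, exact interval 78.4 to 85.6%; 82.7% and 84.5% in the replicates), against 63.4% of the eligible sequence. The nearest start belonged to the host for 379 (82.4%; 81.6% and 84.2% in the replicates), against 69.4% of the eligible sequence. Of these, 272 lay downstream of that start and 107 upstream of it, which is the position of a summit before an internal start of the gene. The other 81 were nearest to a start of another gene, 52 of them upstream of it and 29 downstream. Summits were denser nearer to a start, and the 63.4% and 69.4% of eligible sequence were not matched to the peaks in distance. The shortest intron of the host that holds each summit had a median length of 5162 bp (quartiles 2199 and 11381 bp). Another optimal summit lay within 2000 bp of 184 of the 460 (40.0%), and 4 of them shared a called interval with another peak. The density was 48.2 per Mb on X and 37.3 to 39.9 per Mb on the other 4 large arms, and the small chromosome 4 held 0 of these peaks. Rates by arm are given for the optimal set alone, with no values for the replicates or the other classes of peak.

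Near-start intron peaks were more frequent in genes that also had a promoter peak. Of 8843 protein-coding genes with eligible intron sequence, 379 held a near-start intron peak (4.29%), and 1957 had an optimal summit within 500 bp of a start (22.1%). A promoter peak was present at 159 of the 379 host genes (42.0%, exact interval 36.9 to 47.1%) and at 1798 of the 8464 others (21.2%). Per length, genes with a promoter peak held 67.9 near-start intron summits per Mb of eligible sequence and genes without held 30.8. In replicate 1 the rates were 69.1 and 31.97, and in replicate 2 they were 69.7 and 26.0. Still, 260 of the 460 peaks lay in genes with no promoter peak in the optimal set.

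The strongest near-start intron peaks ranked among the strongest of the whole set. They made up 17 of the 100 highest-scoring optimal peaks (exact interval 10.2 to 25.8%), 11.2% of ranks 101 to 1000 and 13.5% of the rest, so their share did not change steadily with rank. The median score was 155 (quartiles 120 and 258), against 163 for distal intron and 173 for promoter peaks. The order of the intron classes was not stable: the median rank stood at 55.7% of the set for near-start and 51.8% for distal intron peaks, but at 52.6% and 53.4% in replicate 1. The strongest was in CG11050, with a score of 2811, rank 3 in the optimal set and rank 3 in each replicate. It lay 1029 bp downstream of a CG11050 start, in an intron of 140 bp that is not the first. Its called interval, at 453 bp, was wider than this intron. CG9663 held 2 summits in 1 called interval, 208 bp apart, with scores of 2077 (rank 8) and 842 (rank 77). Lk6, a kinase related to the MAPK-interacting kinases that phosphorylate the translation factor eIF4E, had a score of 2010 and ranks 12 and 9 in the replicates, 975 bp upstream of an internal start.

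The strongest peaks fell in genes of varied function. The peak in CG32772 had a score of 1751 and that in norpA, the phospholipase C of phototransduction, 1525, with rank 23 in the optimal set and in both replicates. CG4496 had a peak with a score of 1302, 574 bp upstream of a start. The Trl peak (score 1256, ranks 30 and 37 in replicates 1 and 2) lay in an intron that is not the first, 1539 bp downstream of a start. CG3726 followed with 1246, and Zw, which encodes glucose-6-phosphate dehydrogenase, with 1223. CHES-1-like, a forkhead factor, had a peak with a score of 1153. The Zw and CHES-1-like summits were nearest to starts of the non-coding genes asRNA:CR44512 and lncRNA:CR43287.

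The next peaks were likewise in genes of several kinds. Adf1, a MADF-domain activator, had a score of 1082, and ush, a zinc-finger cofactor of GATA factors, 1073, its summit nearest to a start of cbt. The gene for, a cGMP-dependent protein kinase, had 1061, and Hyls1, a centriole protein, 944. HmgZ, a high-mobility-group protein, had 912, the polarity gene crb 790, the lysophospholipid acyltransferase gene LPCAT 732 and tna, a SUMO-ligase relative, 715. The peak in simj, a subunit of the NuRD complex, had a score of 672 and rank 153 in replicate 2, but no replicate 1 summit within 100 bp, the nearest being at 118 bp. CG9921, shn, the myosin relative Mhcl, the receptor phosphatase gene Ptp10D and ImpL2 closed the 25 strongest with scores of 646, 625, 613, 599 and 597. All 24 with a match in both replicates ranked within the first 198 of replicate 1, and all 25 within the first 236 of replicate 2. Of the 25, 23 were in a first intron and 12 in a gene with a promoter peak.

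**Figure D4:**
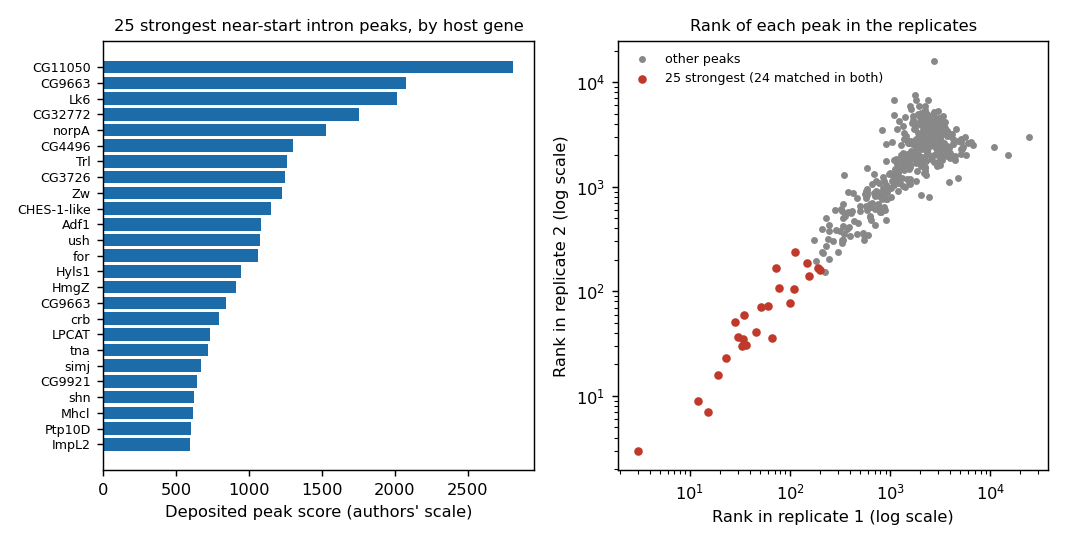
Left, deposited score of the 25 strongest near-start intron peaks by host gene (CG9663 holds 2). Right, rank of each near-start intron peak in the relaxed lists of replicate 1 and replicate 2 on log axes, with the 24 of the strongest that were matched in both lists in red, all within rank 198 in replicate 1 and 236 in replicate 2.

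Near-start intron and promoter peaks were not recovered equally in the replicates. A near-start intron peak had a summit within 100 bp among the 3533 best of replicate 1 in 88.7% of cases and of replicate 2 in 82.2%. Promoter peaks showed the opposite order, at 83.3% and 90.5%. Distal intron peaks had the order of the near-start ones, at 87.4% and 84.9%, and did not differ detectably from them (Fisher's exact test, adjusted p = 0.561 in replicate 1 and 0.400 in replicate 2). Against promoter peaks, the near-start intron peaks were higher by 5.40 percentage points in replicate 1 (Fisher's exact test, adjusted p = 0.0108 over 6 comparisons) and the difference was -8.33 points in replicate 2 (adjusted p = 5.86e-06, Fisher's exact test). A match in both replicates was found for 72.2% of near-start intron peaks, 75.2% of promoter peaks (Fisher's exact test, adjusted p = 0.384) and 74.9% of distal intron peaks (Fisher's exact test, adjusted p = 0.422). Because the optimal set came from the same 2 replicates, these shares measure matching and are no independent repeat.

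Some genes held several of these peaks, counted by summit. Of 386 host genes, 379 of them protein-coding, 335 held 1 peak, 39 held 2 and 12 held 3 or more. CG1677 held 6 in a span of 124709 bp, with scores from 103 to 226, and 6 of them had a summit within 100 bp among the best of replicate 1 and 5 among those of replicate 2. All 6 lay in 1 intron of 73902 bp, and the nearest start was that of another gene in each case, brk for 3, unc-119 for 2 and CBP for 1. CHES-1-like held 5 in 27048 bp, with scores up to 1153; 4 of them were nearest to its own starts, and 5 and 4 were matched in the replicates. Each of shn, a zinc-finger effector of Dpp signalling, HmgZ, Diap1, an inhibitor of caspases, RhoGAP18B, Svil, an actin-binding supervillin relative, and Tlk, the Tousled-like kinase, held 4. Of the RhoGAP18B peaks, 4 were matched in replicate 1 and 2 in replicate 2. The translational repressor gene brat, the forkhead gene jumu, Mnt, which encodes a partner of Max, and CG46310 held 3 each, and for jumu 3 were matched in replicate 1 and 1 in replicate 2. At brat, 2 of the 3 peaks were nearest to a start of Polr1D, and at Svil 2 of the 4 were nearest to starts of other genes. The hosts differed in how much sequence could hold a summit, from 1.5 kb in jumu to 34.5 kb in Svil. Summits counted apart need not be separate sites, and 34 of the 460 peaks had another optimal summit within 500 bp. At HmgZ a pair of summits lay 214 bp apart in 1 called interval, and pairs at Diap1 and CG1677 lay 199 and 204 bp apart. At CG9705 itself, 2 optimal peaks lay within 2000 bp, with scores of 268 and 223, both within 500 bp of a start, so it held 0 near-start intron peaks.

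Genes of 13 lists were then counted against the background of 4.29% of eligible protein-coding genes, with no test, since the lists were written with earlier results of these data known. The lists differ in eligible intron sequence per gene, from 0.211 kb for ribosomal protein genes to 5.21 kb for RNA-binding genes. The rate per Mb, 40.2 over all eligible sequence, is therefore given as well. Of the ecdysone response genes, which carry the steroid signal that ends larval life, 9 of 25 held a near-start intron peak (36.0%; 8 and 9 in the replicates; 99.2 per Mb). They included ImpL2, a secreted insulin-binding protein (score 597), the ecdysone receptor gene EcR (406), Eip74EF, an ETS factor (253), and the receptor coactivator tai (163). With 4.84 kb per gene they have much sequence for such peaks, and among the 1766 highest-scoring optimal peaks 3 of the 25 genes held such a peak. The EcR summit with a score of 406 was nearest to a start of tRNA:Asn-GTT-1-1, in an intron that is not the first.

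With 5.21 kb of eligible sequence per gene, RNA-binding genes held such peaks at 11 of 41 (26.8%; 12 and 13 in the replicates; 60.8 per Mb). They included the translational repressors pum (score 435) and brat (315), Rbp9, of the ELAV family (302), and msi (289). The pum and msi summits were nearest to starts of lncRNA:CR45196 and lncRNA:CR46100, and this brat summit to a start of Polr1D. The cold-shock domain gene yps, named after its value was seen, held a peak with a score of 103 that was at rank 6697 in replicate 1 and 2504 in replicate 2. Cytoskeleton and junction genes, with 3.72 kb per gene, held them at 9 of 34 (26.5%; 8 in each replicate; 79.1 per Mb). The highest-scoring were crb at 790, the nuclear-anchoring spectrin-repeat gene Msp300 at 453, the adherens-junction gene cno at 277 and Moe, which links actin to the membrane, at 184.

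Lipid storage and synthesis genes held them at 6 of 28 (21.4%; 5 in each replicate; 113 per Mb). The 4 highest-scoring were SREBP, the regulator of lipid synthesis (score 246), the lipid-droplet gene Lsd-2 (161), the lipase gene bmm (125) and the phosphatidate phosphatase gene Lpin (111), and 1 of the 6 was within the 1766 highest-scoring peaks. Polycomb and trithorax group genes held them at 5 of 33 (15.2%; 5 in each replicate; 121 per Mb). They were led by Trl, the Polycomb-complex gene ph-p (548), the chromatin remodeller gene kis (247) and the bromodomain gene fs(1)h (203). The kis summit with this score was nearest to a start of lncRNA:CR44222. All 5 of these hosts also had a promoter peak. So did 5 of the 6 lipid hosts, 4 of the 9 ecdysone response hosts and 42.0% of all protein-coding hosts. Clock genes held near-start intron peaks at 2 of 10 (76.4 per Mb), the kinase genes sgg (281) and dco (145). Kinase genes held them at 4 of 38 (10.5%; 6 and 5 in the replicates; 60.8 per Mb, with 98.8 and 68.4 in the replicates): Lk6, sgg, Tlk (267) and Hipk (153). The Hipk summit was nearest to a start of lncRNA:CR46249.

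The remaining lists had lower shares of genes with a peak. Growth control genes held them at 2 of 28 (7.14%; 4 with replicate 1 alone and 2 with replicate 2 alone; 44.4 per Mb, with 88.9 and 44.4 in the replicates), the insulin receptor gene InR (414) and the Hippo-pathway gene ex (145). Disc patterning genes held them at 3 of 49 (6.12%; 3 and 2 in the replicates; 32.1 per Mb, with 32.1 and 16.04 in the replicates), the receptor gene Egfr (169), the zinc-finger gene bowl (154) and the ETS-factor gene pnt (114). Neuronal genes held them at 1 of 25, the RNA-binding gene elav (172), which is 10.4 per Mb of their 96.0 kb of eligible sequence in the optimal set and in each replicate. Ribosomal protein genes were at 0 of 25, cuticle protein genes at 0 of 36 and chemosensory receptor genes at 0 of 130. Exact intervals allow shares of up to 13.7%, 9.74% and 2.80% for these 3 lists, and they have little intron sequence in reach of a start, at 5.27 kb, 29.8 kb and 38.6 kb in all, where 40.2 summits per Mb would place few or none. The upper limit of 2.80% for chemosensory receptor genes lies below the background of 4.29% of genes, but these genes average 0.297 kb of eligible sequence. A depletion per length of sequence was therefore not detectable in the 3 lists. Of the peaks named in this paragraph, those in ex and pnt were nearest to starts of lncRNA:CR43717 and lncRNA:CR46090.

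**Figure D5:**
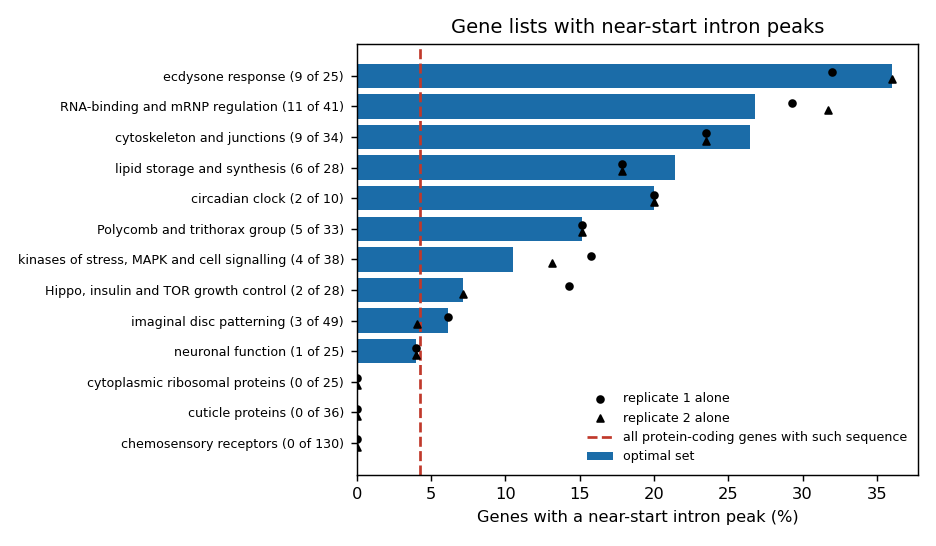
Percent of the genes of each list, among those with eligible intron sequence, that hold a near-start intron peak (bars, optimal set; points, best peaks of each replicate alone), with counts in the labels; the dashed line is the 4.29% of all such protein-coding genes. The ecdysone response list has the highest bar at 36.0%, and 3 lists are at 0.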

How the data were processed

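Peak lists of 2 replicates and of their pool were analysed, in narrowPeak format on dm6, per the deposited file notes. Those notes derive each list from the library's alignment and 1 control file. How reads were aligned, which caller was used and at what IDR threshold is not given in the sources used here. Each deposited score is the authors' signal value for a peak, with no stated scale. The deposited −log10 q value reaches a ceiling, so it was not used for ranks. The summit is the authors' offset from the peak start. Chromatin had been sonicated to 200 to 800 bp, per the labels.

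Starts, exons and spans came from Ensembl release 115 (BDGP6.54) without transposable elements, and sequence from RefSeq Release 6, the assembly of dm6; all peaks lay within its arms. A host is the protein-coding gene whose span holds the summit, the shortest where several do, or, where no protein-coding span does, a non-coding gene (6 peaks) or pseudogene (1 peak). Motif shares and replicate matches were compared by the two-sided Fisher's exact test with Benjamini-Hochberg adjustment over 56 and 6 comparisons. Peaks are not replicates of a condition, so these tests compare classes of peaks in this experiment. Intervals are exact binomial (95%). Alternatives were each replicate alone, the 1766 highest-scoring optimal peaks, other distances, other windows, other matching and protein-coding genes only. Named genes are the 25 strongest, hosts of 3 or more, those beside each distance limit, up to 4 per list by score, and CG9705, with yps and other genes with the nearest start added after their values were seen; sequences from 1 chromosome arm are not shown. The members and lists were chosen with earlier results of these data known. Of the list symbols 7 were matched through older symbols and 6 were not matched. Class assignment was checked by a second calculation at random genome positions, and the motif test on distal intron windows with and without planted DRE sites. The versions were scipy 1.17.1 and numpy 2.4.6 under Python 3.11.15, with pandas 2.3.3 for tables and matplotlib 3.10.9 for figures.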

Additional observations from a re-analysis of the deposited data

How the results depend on the processing

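Among the 6 motifs that passed against promoter peaks, the only ones whose direction was followed, no difference reversed under any alternative. Small untested differences did in replicate 1: the near-start intron peaks ranked below distal intron peaks in the optimal set (medians at 55.7% and 51.8% of the set) and above them there (52.6% and 53.4%), and their G and C was below that of promoter peaks in the optimal set (34.3% and 34.8%) and above it there (34.1% and 33.8%). Of 60 alternatives for the main results 30 stayed within their limit, and the other 30 follow; where the setting itself does not account for a change, the cause was not tested. Changing the distances to an outer limit of 1000 bp, 3000 bp or an inner limit of 750 bp gave near-start intron shares of 6.51%, 16.5% and 9.48%, and densities of 52.2, 34.8 and 36.6 per Mb. Outer limits of 1000 and 3000 bp gave first-intron shares of 83.5% and 80.1%. Among the 1766 highest-scoring peaks the share was 11.2%, the density 17.2 per Mb, the first-intron share 85.3%, the host-start share 84.8% and the promoter-peak share 28.9%; promoter peaks were then also fewer. There, 24 in place of 50 list genes held a peak, the median rank was at 44.6% of the set in place of 55.7%, and 2 motifs passed against promoter peaks. With protein-coding genes only, the first-intron share was 84.4% and the host-start share 90.1%. Windows of 50 and 150 bp to each side gave G and C of 32.7% and 36.9%. With 50 bp, 3 motifs passed against promoter peaks, not all of them among the 6 that passed with 100 bp.

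Leaving out each replicate in turn gave a first-intron share of 82.7 to 84.5%, a host-start share of 81.6 to 84.2%, a promoter-peak share of 42.4 to 49.4%, a median rank of 52.6 to 54.1% and G and C of 34.1 to 35.8%. A summit within 50 bp, a reciprocal overlap of 50% or any relaxed peak gave 62.0%, 61.1% and 95.7% found in both replicates. Among single motifs 9 alternatives lost the call and among single lists 9 moved. No paired analysis was possible because there is 1 group only. Depth is unknown, and 2 replicates of 1 line limit the error to their range.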
